A study of Danio rerio with 9 samples.

Results

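The genes that build and load plasma lipoproteins were followed in zebrafish heads, as a set of 9 of the 32520 genes with a deposited expression level. They were the apolipoprotein genes apoba, apobb.1, apoa1a, apoa1b, apoa2, apoa4b.1, apoea and apoc1, and mttp, which encodes the protein that loads lipid onto apolipoprotein B. The genes were taken by name, with case ignored, and all 9 were found. The name table used here lists apoba as APOB (ENSDARG00000042780) and mttp as MTTP (ENSDARG00000008637), and APOB was taken as apoba because the names share a stem. In the embryo these genes are best known for carrying lipid out of the yolk, but the heads had been cut from the body before extraction, and the expression levels do not say in which tissue a transcript was made.

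Lipoproteins are particles of lipid wrapped in apolipoproteins that carry fat and cholesterol through the circulation. In the zebrafish embryo the yolk syncytial layer, a layer of nuclei at the surface of the yolk, packs yolk lipid into lipoproteins that contain apolipoprotein B, and the liver and the gut take this task over as the larva grows. Apolipoprotein B stays with its particle for life, while the smaller apolipoproteins of the A, C and E families move between particles.

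RNA-seq was performed on 9 samples, 3 of each of 3 groups, each from a pool of 5 heads of the Tubingen strain at the long-pec stage, 2 days post-fertilization (dpf). Germ-free (GF) larvae had been sterilized during gastrulation with gentamicin and hypochlorite and kept in sterile medium. ZM larvae had been sterilized in the same way and then kept with filter-sterilized metabolites from the guts of adult male zebrafish, so ZM and GF share the sterilization. Conventionally raised (CV) larvae were not sterilized. All groups shared the strain, the stage and the dissection at the base of the hindbrain, and no mutant or transgenic group was compared.

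Expression levels are given as FPKM, the number of sequenced fragments scaled to the length of the transcript and to the mapped fragments of the sample, so levels can be compared between genes. The sum of FPKM over all genes lay between 666444 and 704307 in GF, between 676251 and 705494 in ZM and between 587431 and 657383 in CV. How many reads stand behind a value is unknown, so no counting error is given. Of the 15904 genes tested with limma, 1 was lower and 0 were higher in GF than in CV at a Benjamini-Hochberg adjusted p under 0.05, while 2858 were lower and 747 higher before adjustment. The CV samples stood far apart from each other, with a median standard deviation (SD) of log2(FPKM + 1) of 0.270, against 0.178 in GF and 0.187 in ZM. The study calls the 3 samples of a group biological replicates, but nothing in the labels says that they came from separate clutches. The p-values thus rest on the spread between these pools, which may be partly technical.

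None of the 9 genes differed between GF, ZM and CV beyond the spread between samples of 1 group. The spread itself was wide and largely shared. For 7 of the 9 genes, CV 1 and ZM 2 had the top levels, and for 6 of the 9 the lowest level was in CV 3. The summed FPKM of the 9 genes was 1752, 1951 and 2907 in GF 1, 2 and 3, 1744, 3525 and 2241 in ZM 1, 2 and 3, and 4662, 2307 and 1420 in CV 1, 2 and 3. The highest and the lowest sum of the 9 samples were thus both in CV. As a share of the sample's FPKM sum, the genes took 0.263% to 0.413% in GF, 0.250% to 0.500% in ZM and 0.242% to 0.731% in CV. With the 9 genes and the mitochondrially encoded genes left out of the denominator, the shares were 0.278% to 0.437%, 0.261% to 0.523% and 0.254% to 0.771%.

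**Figure D1:**
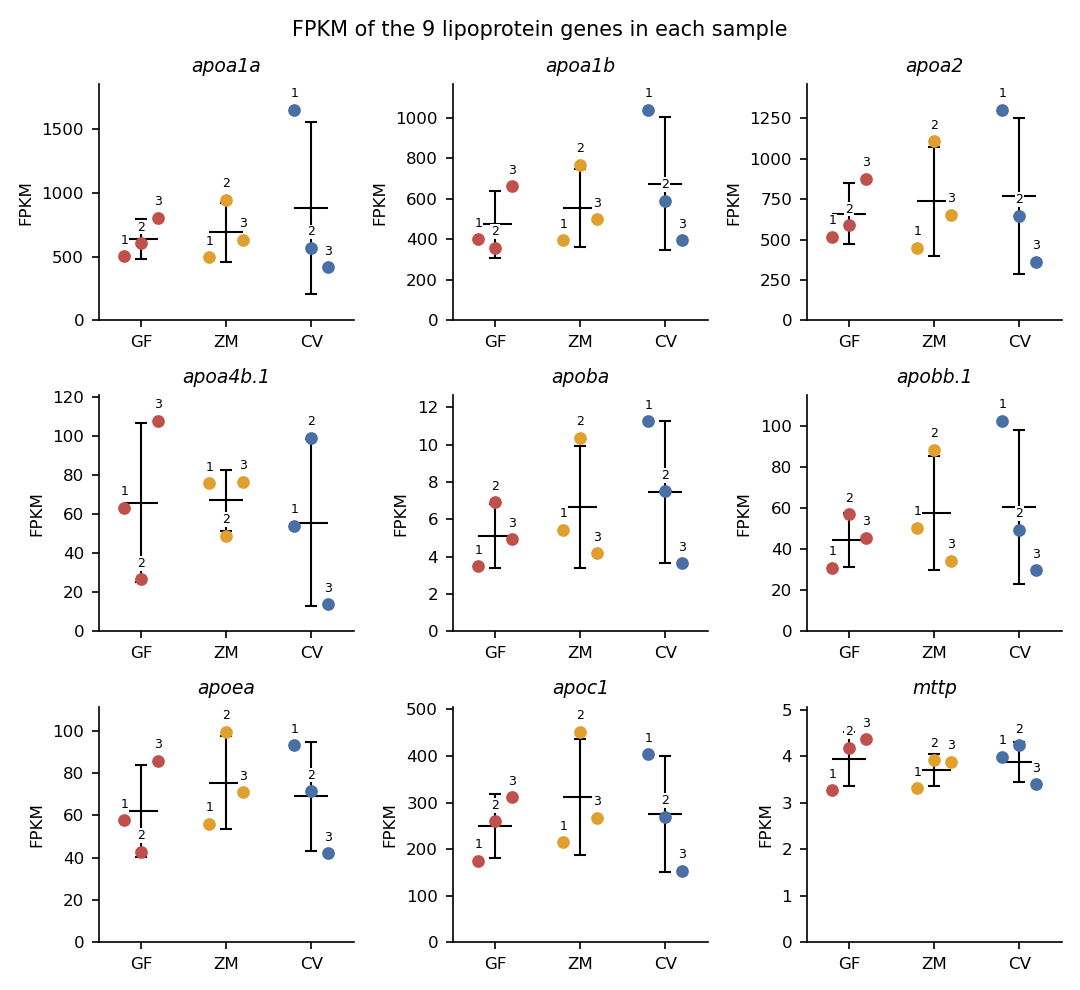
Expression level (FPKM, linear axis from 0) of each lipoprotein gene in the GF, ZM and CV samples, with points for samples, their replicate number above them, and the group mean ± SD in black (n = 3). CV 1 is the highest point of 5 genes and CV 3 the lowest of 6, and the 3 groups overlap for every gene.

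Apolipoprotein B, the scaffold of the particles that leave the yolk, the liver and the gut, is encoded in zebrafish by several genes. The FPKM of apobb.1 (ENSDARG00000022767) was 31.0, 57.1 and 45.6 in GF 1, 2 and 3, 50.5, 88.4 and 34.4 in ZM 1, 2 and 3, and 102.5, 49.5 and 29.8 in CV 1, 2 and 3. That of apoba was 3.48, 6.92 and 4.95 in GF, 5.44, 10.4 and 4.18 in ZM, and 11.3, 7.49 and 3.64 in CV. Both genes were highest in CV 1 and next highest in ZM 2, and the groups overlapped. In each sample apobb.1 exceeded apoba, by between 6.61 and 9.27 times, so the balance of these apolipoprotein B genes varied less than the level of either, which spanned 3.44-fold for apobb.1 and 3.23-fold for apoba. The GF/CV log2 ratio, which is the mean log2(FPKM + 1) in GF minus that in CV, was -0.30 for apobb.1 (95% interval -1.29 to 0.69, adjusted p = 0.739 from limma) and -0.40 for apoba (-1.26 to 0.47, adjusted p = 0.593). The ZM/GF log2 ratio was 0.30 for apobb.1 (-0.68 to 1.29, adjusted p = 0.966 from limma) and 0.28 for apoba (-0.58 to 1.15, adjusted p = 0.960). How reads that fit both genes were divided is not given in the sources used here.

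Mttp, which transfers lipid to apolipoprotein B in the endoplasmic reticulum, was the lowest and the steadiest of the 9 genes. Its FPKM was 3.27, 4.18 and 4.37 in GF 1, 2 and 3, 3.31, 3.92 and 3.88 in ZM 1, 2 and 3, and 3.99, 4.24 and 3.40 in CV 1, 2 and 3. The highest level was 1.34 times the lowest, and both were in GF. Its residual SD across the groups was 0.141 on the log2 scale, and 86.7% of the genes tested varied more. The interval of its difference was accordingly narrow, -0.35 to 0.38 around a GF/CV log2 ratio of 0.02 (adjusted p = 0.965 from limma), and -0.43 to 0.30 around a ZM/GF log2 ratio of -0.07 (adjusted p = 0.990). The log2(FPKM + 1) scale understates changes of genes as low as mttp and apoba.

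The main apolipoproteins of high-density lipoprotein, apoa1a, apoa1b and apoa2, dominated the set and made up 76.7% to 85.7% of its summed FPKM in every sample. Apoa1a (ENSDARG00000012076) had an FPKM of 502, 607 and 807 in GF 1, 2 and 3, 494, 945 and 631 in ZM 1, 2 and 3, and 1652, 568 and 416 in CV 1, 2 and 3. Apoa1b (ENSDARG00000101324) had 399.7, 358 and 663 in GF, 396, 769 and 499 in ZM, and 1039.6, 591 and 396 in CV. Apoa2 (ENSDARG00000015866) had 516, 589 and 877 in GF, 448, 1107 and 654 in ZM, and 1302, 646 and 362 in CV. CV 1 was the highest sample for each of the 3 genes, and CV 3 was the lowest for apoa1a and apoa2. For apoa1b the lowest level was in GF 2, with CV 3, ZM 1 and GF 1 close above it.

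Means and SD show the same width. Apoa1a averaged 639 ± 155 FPKM in GF, 690.2 ± 231 in ZM and 878 ± 674 in CV (SD, n = 3 each). Apoa2 averaged 661 ± 191 in GF, 736 ± 337 in ZM and 770.0 ± 482 in CV (SD, n = 3 each). CV 1 exceeded CV 3 by 3.97 times for apoa1a and by 3.60 times for apoa2. The GF/CV log2 ratio was -0.22 for apoa1a (95% interval -1.21 to 0.77, adjusted p = 0.813 from limma), -0.45 for apoa1b (-1.27 to 0.37, adjusted p = 0.514) and -0.06 for apoa2 (-1.06 to 0.93, adjusted p = 0.951). The ZM/GF log2 ratios of these genes were 0.09, 0.23 and 0.09, with limma adjusted p of 0.998, 0.971 and 0.998. The ratio of apoa1a to apoa1b was between 0.960 and 1.69 and that of apoa2 to apoa1a between 0.788 and 1.17 over the 9 samples, so the 3 genes kept similar proportions while their levels varied.

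Apoea, apoc1 and apoa4b.1 encode smaller apolipoproteins of the exchangeable kind. Apolipoprotein E directs particles to receptors, and apolipoprotein C-I is known in mammals to inhibit lipases and the receptor uptake of particles. Apoea (ENSDARG00000102004) had an FPKM of 57.7, 42.9 and 85.9 in GF 1, 2 and 3, 56.1, 99.5 and 70.8 in ZM 1, 2 and 3, and 93.2, 71.5 and 42.1 in CV 1, 2 and 3. Apoc1 (ENSDARG00000092170) had 176, 259.6 and 312 in GF, 215, 452 and 267 in ZM, and 404, 269.6 and 154 in CV. Both were highest in ZM 2, with CV 1 next, and lowest in CV 3. Their GF/CV log2 ratios were -0.13 (95% interval -0.86 to 0.60, adjusted p = 0.852 from limma) for apoea and -0.08 (-0.90 to 0.74, adjusted p = 0.926) for apoc1. Their ZM/GF log2 ratios were 0.29 (-0.44 to 1.02, adjusted p = 0.937 from limma) for apoea and 0.29 (-0.54 to 1.11, adjusted p = 0.953) for apoc1.

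Apoa4b.1 had a pattern of its own. Members of the apolipoprotein A-IV family are made by intestinal cells that absorb fat and, in zebrafish embryos, by the yolk syncytial layer. Its FPKM (ENSDARG00000040298) was 63.2, 26.6 and 108 in GF 1, 2 and 3, 75.8, 49.0 and 76.6 in ZM 1, 2 and 3, and 54.1, 99.2 and 14.0 in CV 1, 2 and 3. The highest sample was GF 3 and the second highest CV 2, while ZM 2, at or near the top for 7 of the other genes, was the lowest of the ZM samples. With a span of 7.71-fold it was the most variable of the 9 genes, and 1.01% of the genes tested had a larger residual SD than its 1.01 on the log2 scale. Its intervals were correspondingly wide. The GF/CV log2 ratio of apoa4b.1 was 0.41 (-1.03 to 1.85, adjusted p = 0.756 from limma), the ZM/GF ratio 0.21 (-1.23 to 1.65, adjusted p = 0.994), and the ZM/CV ratio 0.62 (-0.82 to 2.06, adjusted p = 0.610). Differences of more than 2-fold in either direction between GF and CV therefore lie within its interval.

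The question of whether germ-free rearing altered the expression of these genes was addressed by GF against CV. With limma, 0 of the 9 genes were lower and 0 higher in GF at an adjusted p under 0.05, where 0.00629% of all 15904 genes tested were lower and 0.0% higher. Without adjustment 0 of 9 had a p under 0.05, against 22.7% of all genes tested. The GF and CV samples overlapped for all 9 genes, where 26.8% of all genes tested had groups that did not overlap. The mean log2 level was lower in GF for 7 of the 9 genes, with apoa4b.1 and mttp the exceptions, and the median GF/CV log2 ratio was -0.13, against 0.02 over all genes tested. After median-of-ratios rescaling apoa2 lay on the other side of 0, at 0.0037, and after rescaling to an equal FPKM sum mttp did, at -0.09. With 3 samples against 3, an exact permutation test of a single gene cannot give a two-sided p below 0.1.

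The comparison of ZM with GF asks whether gut metabolites altered the expression of these genes in sterile larvae. With limma and an adjusted p under 0.1, the level used by the study for this comparison, 0 of the 9 genes were lower and 0 higher in ZM, where 0.0% of all genes tested were lower and 0.00629% higher. Without adjustment 0 of 9 had a p under 0.05, against 5.71% of all genes tested, and 0 of 9 had groups that did not overlap, against 16.6%. The mean log2 level was higher in ZM for 8 of the 9 genes, all but mttp, with a median ZM/GF log2 ratio of 0.23, against 0.0040 over all genes tested. The limma adjusted p of the 9 genes lay between 0.937 and 0.998. The model shared 1 spread per gene over all groups, so the ZM/GF intervals and p also carry the spread in CV. The ZM/GF median rested on ZM 2: without that sample it was -0.04.

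Between ZM and CV, 0 of the 9 genes passed an adjusted p under 0.05 from limma in either direction, where 0.0% of all genes tested did. At an unadjusted p under 0.05 the count was 0 of 9, against 23.4% of all genes tested, and 0 of 9 had groups that did not overlap, against 21.8%. The median ZM/CV log2 ratio was 0.0053, against -0.05 over all genes tested, with 5 genes higher and 4 lower in mean, and it was -0.14 after rescaling to an equal FPKM sum and 0.10 after median-of-ratios rescaling. The limma adjusted p lay between 0.610 and 0.995. ZM against GF and ZM against CV share the ZM samples, and GF against CV shares its samples with both, so the 3 comparisons are not independent.

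**Figure D2:**
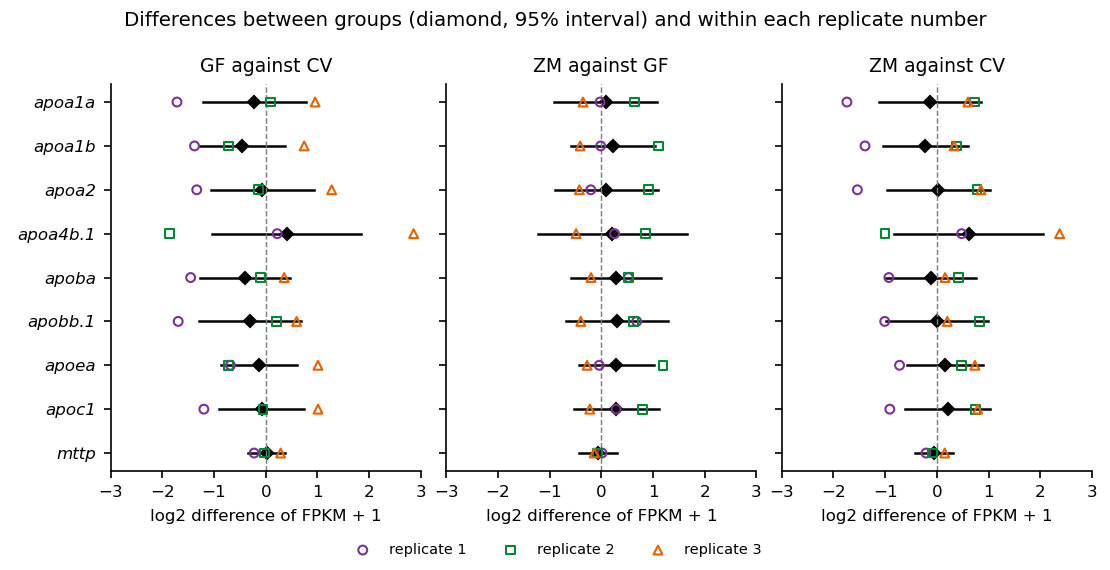
Difference in log2(FPKM + 1) of each lipoprotein gene for GF against CV, ZM against GF and ZM against CV, with black diamonds and lines for the limma estimate and its 95% interval, and open symbols for the difference between samples of the same replicate number. Every interval includes 0, and for GF against CV the circles (replicate 1) lie below 0 for 8 of 9 genes while the triangles (replicate 3) lie above 0 for all 9.

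The direction of the difference depended on which samples were set side by side. Same-numbered samples of ZM and GF went together, most clearly in replicate 3, but the labels state no pairing, and a pairing of CV by number is not settled. CV 1 correlated more with GF 2 and ZM 2 than with GF 1 and ZM 1. CV 2 correlated more with GF 1 and ZM 1 than with GF 2 and ZM 2. Differences from CV within a replicate number therefore describe those samples only. Between samples with replicate number 1, GF exceeded CV for 1 of the 9 genes, against 66.1% of all genes tested. It did so for 2 of the 9 in replicate 2, against 26.1% of all genes, and for 9 of the 9 in replicate 3, against 46.8%. For apoa1a the difference in log2(FPKM + 1) between GF and CV was -1.72 in replicate 1, 0.10 in replicate 2 and 0.96 in replicate 3, and for apoa2 it was -1.33, -0.13 and 1.27. ZM exceeded GF for 5, 8 and 0 of the 9 genes in replicates 1, 2 and 3, against 37.7%, 52.3% and 63.3% of all genes tested. ZM exceeded CV for 1, 7 and 9 of them, against 54.9%, 35.3% and 48.1%. No gene of the 9 moved in 1 direction in all 3 replicate numbers in any of the 3 comparisons.

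Leaving out single samples moved the medians in the same way. The median GF/CV log2 ratio of the 9 genes was 0.17 without CV 1 and -0.51 without CV 3. The ZM/CV median was 0.45 without CV 1 and -0.40 without CV 3. None of the 9 genes passed the adjusted threshold of limma in any comparison when any of the 9 samples was left out. In these fits at most 1 of all genes tested passed in either direction of any comparison, apart from the fit without CV 2. Without CV 2, 2202 genes were lower and 297 higher in GF/CV, and 1925 lower and 602 higher in ZM/CV. The sum of the 9 genes in CV was 4662 in CV 1 and 1420 in CV 3, so these samples stood at opposite ends of the same group.

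Within each group the lipoprotein genes varied more than most genes on the log2(FPKM + 1) scale. This scale understates the spread of low genes, and the genes tested were not matched to the 9 by level. The median SD of log2(FPKM + 1) over the 9 genes was 0.421 in GF, 0.485 in ZM and 0.708 in CV, against 0.178, 0.187 and 0.270 over all genes tested. In each group 8 of the 9 genes exceeded the median SD of all genes, and mttp did not. The median residual SD was 0.581 for the 9 genes and 0.247 for all genes tested. Apoa1a, apoa2 and apobb.1 had residual SD of 0.690, 0.693 and 0.686, and between 2.71% and 2.75% of the genes tested varied more. All 9 genes were higher in CV 1 than in CV 3, a direction shared by 35.9% of all genes tested.

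**Figure D3:**
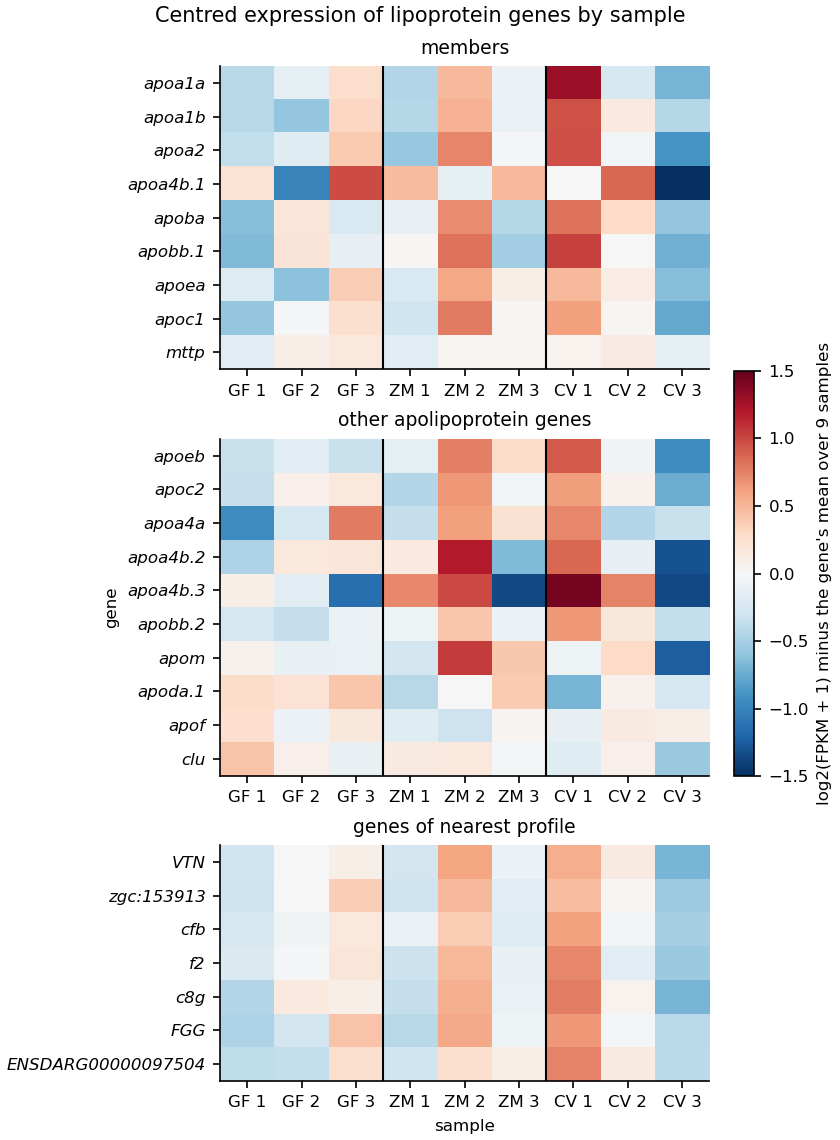
Heat map of log2(FPKM + 1) minus the gene's own mean over the 9 samples, for the 9 lipoprotein genes, 10 other apolipoprotein genes and the non-member genes nearest in profile (apoc2, also among the nearest, stands in the middle block), with samples in columns and the groups parted by black lines. CV 1 and ZM 2 are red and CV 3 blue in most rows of the top and bottom blocks, while the mttp row is nearly white and the apoa4b.1 row runs differently. The darkest colours also stand for values past the ends of the scale.

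Likeness to the lipoprotein genes across the 9 samples was measured as the root mean square distance between a gene's centred log2(FPKM + 1) profile and the mean centred profile of the 9 genes. The 8 nearest of the other genes tested were VTN (vitronectin) at 0.120, apoc2 at 0.146, zgc:153913 at 0.148, cfb (complement factor B) at 0.148, f2 (prothrombin) at 0.155, c8g (a chain of complement component C8) at 0.156, FGG (a chain of fibrinogen) at 0.164 and ENSDARG00000097504 at 0.167. The median distance of all genes tested was 0.529. The FPKM of f2 was 6.75, 7.83 and 9.25 in GF 1, 2 and 3, 6.21, 11.7 and 7.35 in ZM 1, 2 and 3, and 13.9, 7.02 and 5.12 in CV 1, 2 and 3, with the same 3 highest and the same 3 lowest samples as apoa2. Among the 9 genes themselves the distance to their mean profile was smallest for apoc1, at 0.150, and largest for apoa4b.1, at 0.737, and 87.8% of the genes tested lay nearer to that profile than apoa4b.1. These distances describe 9 samples and carry no test.

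Of the apolipoprotein genes beside the 9, 11 of 15 listed names were matched and 10 tested, and 0 passed in any comparison, with a median GF/CV log2 ratio of 0.03 (-0.10 after rescaling to an equal FPKM sum), a ZM/GF median of 0.29 and a ZM/CV median of 0.24. The highest of them was apoeb, a second apolipoprotein E gene, with an FPKM of 114, 129 and 114 in GF 1, 2 and 3, 129.9, 245 and 175 in ZM 1, 2 and 3, and 273, 139 and 75.2 in CV 1, 2 and 3. Every ZM sample lay above every GF sample for apoeb, by a log2 ratio of 0.57 (adjusted p = 0.873 from limma), while ZM 1 exceeded GF 2 by less than 1 FPKM. Its SD of log2(FPKM + 1) was 0.10 in GF, 0.46 in ZM and 0.92 in CV, and that p carries the spread of all these groups. Its highest and lowest samples were again CV 1 and CV 3. Apoc2, whose product activates lipoprotein lipase, had 67.1, 90.3 and 96.1 in GF, 63.3, 136 and 83.2 in ZM, and 133, 89.6 and 50.8 in CV. As for apoc1, ZM 2 and CV 1 were its highest samples and CV 3 its lowest.

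Apoda.1, a gene for apolipoprotein D, which is a lipocalin and not a relative of the apolipoproteins of the set, ran differently. Its FPKM was 37.1, 35.3 and 40.8 in GF 1, 2 and 3, 22.5, 30.2 and 40.2 in ZM 1, 2 and 3, and 18.3, 31.8 and 25.4 in CV 1, 2 and 3. All 3 GF samples exceeded all 3 CV samples, with a GF/CV log2 ratio of 0.60 (unadjusted p = 0.0273, adjusted p = 0.158 from limma), which did not pass. Apom, apof and clu, which encode apolipoproteins M, F and J, did not pass in any comparison either.

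In the order of protein-coding genes of the zebrafish assembly GRCz12tu, which differs from the GRCz11 assembly of the deposited values, several of these genes are neighbours. Apoa4b.1, apoa4b.3, apoa4b.2, apoeb, apoc1, apoc4, apoa2 and apoc2 lie in this order in 1 cluster, with 1 other gene between apoa4b.1 and apoa4b.3 and 1 between apoa4b.3 and apoa4b.2. Apoa4a lies next to apoea, and the other members of the set lie elsewhere. Levels within the cluster ran from a mean of 722 FPKM for apoa2 and 279 for apoc1 to 0.00614 for apoc4, which was listed at 0 in 6 of the 9 samples and at no more than 0.0212 in the others. Neighbours therefore did not share a level. Nor did the apoa4b genes share a pattern: apoa4b.2 had 15.9, 24.8 and 25.4 FPKM in GF, 24.7, 52.0 and 13.6 in ZM, and 41.3, 20.4 and 8.40 in CV, with ZM 2 highest, where apoa4b.1 had its lowest ZM level. Reads of these tandem copies could have been divided between them.

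Apoa4b.3 split by replicate number, a feature seen only after its values were examined. Its FPKM was 2.58 and 1.96 in GF 1 and 2, 4.51 and 5.59 in ZM 1 and 2, and 8.02 and 4.60 in CV 1 and 2, but 0.525, 0.308 and 0.305 in GF 3, ZM 3 and CV 3. The pancreatic gene ela2l showed the same split, at 7.11, 5.58 and 0.0178 in GF 1, 2 and 3, 7.97, 7.16 and 0 in ZM 1, 2 and 3, and 10.8, 6.37 and 0 in CV 1, 2 and 3. The macrophage marker ctss2.2 was also lowest in replicate 3 of every group, at 0.608, 0.819 and 0.614 FPKM in GF 3, ZM 3 and CV 3. Acsl1a, plin2 and pltp, also from the lists used here, were highest in replicate 3 of every group. How many of all genes split by replicate number was not counted. The labels do not say what the replicate number stands for.

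The genes around the lipoproteins in the pathway were taken from lists, and 0 genes of these lists passed the adjusted threshold in any comparison. Of the 19 matched genes for assembly and secretion other than mttp, 13 were tested, with a median GF/CV log2 ratio of -0.22, and before adjustment 2 were lower and 0 higher in GF at p under 0.05, where 22.7% of all genes tested passed in either direction. The 2 were sec24d and sec23b, coat proteins of the vesicles that carry secreted cargo out of the endoplasmic reticulum. Sec24d had an FPKM of 2.22, 2.53 and 2.02 in GF 1, 2 and 3, 3.15, 3.86 and 2.98 in ZM 1, 2 and 3, and 5.67, 4.19 and 9.16 in CV 1, 2 and 3, a GF/CV log2 ratio of -1.12 (adjusted p = 0.0531 from limma). Sec23b had a GF/CV log2 ratio of -0.82 (adjusted p = 0.0531 from limma) and a ZM/GF ratio of 0.60 (adjusted p = 0.848). Sec24d and sec23b were highest in CV 3, where most of the lipoprotein genes were lowest. P4hb, the partner of Mttp in the transfer complex, was the highest gene of the list, with 88.1 ± 5.13 FPKM in GF, 88.6 ± 8.79 in ZM and 81.3 ± 19.0 in CV (SD, n = 3 each).

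Through receptor and efflux genes lipoproteins are taken up or loaded with cholesterol. Their list also held lrpprc, which is neither a lipoprotein receptor nor an efflux gene. Of the 24 matched genes 17 were tested, lrpprc among them. Their median GF/CV log2 ratio was -0.39, between -0.50 and -0.03 over the alternative settings, and before adjustment 7 were lower and 0 higher in GF at p under 0.05, a level that 22.7% of all genes tested reached in either direction. In ZM against CV 6 were lower and 0 higher, against 23.4% of all genes tested, and in ZM against GF 0 were lower and 1 higher, against 5.71%. Vldlr, a receptor for lipoproteins that carry apolipoprotein E, had an FPKM of 4.65, 4.49 and 4.23 in GF 1, 2 and 3, 3.72, 3.75 and 6.50 in ZM 1, 2 and 3, and 11.0, 7.42 and 18.3 in CV 1, 2 and 3. All GF and all ZM samples lay below all CV samples, with a GF/CV log2 ratio of -1.20 (adjusted p = 0.0533 from limma) and a ZM/CV ratio of -1.18 (adjusted p = 0.156). Abca1a, which loads cholesterol and phospholipid onto apolipoprotein A-I, had 1.21, 0.760 and 0.482 in GF, 0.698, 1.05 and 0.923 in ZM, and 3.38, 1.90 and 3.81 in CV, a GF/CV log2 ratio of -1.14 (adjusted p = 0.0531 from limma). The adjusted p in GF against CV was 0.0531 for lrp6, 0.0565 for lrp5 and 0.0583 for npc1, a transporter of cholesterol out of lysosomes. Lrp5 and lrp6 are known mainly as Wnt coreceptors. Lrp8, a second receptor for apolipoprotein E, had a ZM/CV log2 ratio of -0.74 (adjusted p = 0.156 from limma). Lrpap1, a chaperone of these receptors, was the highest gene of the list, with 43.1 ± 3.53 FPKM in GF, 44.0 ± 4.93 in ZM and 38.1 ± 7.09 in CV (SD, n = 3 each). Of the 17 genes, 1 was higher in CV 1 than in CV 3, against 35.9% of all genes tested and 9 of the 9 lipoprotein genes.

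Among the 20 matched regulators of liver and yolk genes, 15 were tested, with a median GF/CV log2 ratio of -0.43, and before adjustment 7 were lower and 0 higher in GF at p under 0.05, against 22.7% of all genes tested in either direction. In ZM against CV 5 were lower and 0 higher, against 23.4% of all genes, and in ZM against GF 1 was lower and 0 higher, against 5.71%. Nr2f2, the nuclear receptor COUP-TFII, had the highest mean of the list, with an FPKM of 20.8, 21.5 and 19.4 in GF 1, 2 and 3, 20.7, 25.9 and 24.6 in ZM 1, 2 and 3, and 54.1, 25.9 and 52.9 in CV 1, 2 and 3, a GF/CV log2 ratio of -0.998 (adjusted p = 0.0542 from limma). Srebf2, which drives sterol synthesis genes, had a GF/CV log2 ratio of -1.37 (adjusted p = 0.0531 from limma) and a ZM/CV ratio of -0.78 (adjusted p = 0.189). The GF/CV log2 ratio was -0.62 for nr5a2, -0.83 for foxa1, -0.69 for gata6 and -0.23 for prox1a, with limma adjusted p of 0.0827, 0.0998, 0.150 and 0.674. Prox1a, a regulator of liver and lymphatic development, was the gene lower in ZM than in GF before adjustment, with a ZM/GF log2 ratio of -0.77 (unadjusted p = 0.0186, adjusted p = 0.848 from limma). Hnf4a, the nuclear receptor best known for driving apolipoprotein genes and named here after its values were seen, had 1.99 ± 0.740 FPKM in GF, 1.80 ± 0.399 in ZM and 2.11 ± 0.147 in CV (SD, n = 3 each). In CV, where the lipoprotein genes spread most, hnf4a spread least. Whether hnf4a had a part in the spread of the lipoprotein genes was not tested.

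The medians of the receptor and regulator lists were negative in GF/CV and ZM/CV and slightly positive in ZM/GF. Cholesterol synthesis genes, which supply part of the lipid that lipoproteins carry, had positive medians in all 3 comparisons. Of 17 matched genes 14 were tested, 0 passed, and before adjustment 0 were lower and 4 higher in GF than in CV at p under 0.05, against 22.7% of all genes tested in either direction, with a median of 0.26, between 0.15 and 0.43 over the alternative settings. In ZM against CV 0 were lower and 7 higher, against 23.4% of all genes, with a median of 0.37, and in ZM against GF the median was 0.13 with 0 lower and 0 higher. Nsdhl, a sterol dehydrogenase of the pathway, had 3.33, 3.76 and 3.79 FPKM in GF 1, 2 and 3, 4.43, 4.06 and 4.51 in ZM 1, 2 and 3, and 2.14, 2.79 and 2.68 in CV 1, 2 and 3. Its ZM/CV log2 ratio was 0.60 (adjusted p = 0.156 from limma). The ZM/CV log2 ratio was 0.69 for mvda, 0.65 for ebp, 0.56 for fdps, 0.50 for msmo1 and 0.46 for hsd17b7, with limma adjusted p between 0.156 and 0.162. Idi1, the highest gene of the list, had 21.1 ± 3.78 FPKM in GF, 22.5 ± 2.41 in ZM and 18.2 ± 6.37 in CV (SD, n = 3 each). Of the 7 tested genes for lipases and lipid transfer, 0 passed, and angptl4, an inhibitor of lipoprotein lipase, had a ZM/CV log2 ratio of 0.75 (unadjusted p = 0.0179, adjusted p = 0.159 from limma) and a GF/CV ratio of 0.49 (adjusted p = 0.308). Lipg, endothelial lipase, had a ZM/CV log2 ratio of 0.38 (unadjusted p = 0.0352, adjusted p = 0.185 from limma).

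Several of these genes lay close to the threshold and crossed it under some settings. With a pseudocount of 0.1, where 841 genes were lower in all, and with sample weights specific to each group, where 787 were, the receptor and efflux genes vldlr, abca1a and lrp6, the coat genes sec24d and sec23b and the regulators nr2f2 and srebf2 passed an adjusted p under 0.05 from limma in GF against CV. They also passed without CV 2, where 2202 genes were lower and 297 higher in all, as did lrp5, npc1, nr5a2, foxa1 and msmo1. None of them passed without CV 1 or without CV 3, where 0 of all genes tested were lower and 0 higher. The 9 lipoprotein genes did not pass under any of these settings.

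Marker lists of several tissues were set beside the lipoprotein genes. Whether each marker is active in its tissue at 2 dpf, or also in another tissue, was not tested. Low yolk syncytial layer markers and higher liver markers therefore do not show which of these tissues made the lipoprotein transcripts. Of 15 yolk syncytial layer markers 13 were matched, and 5 of them, mxtx2, ttr, vtg1, vtg2 and vtg3, had a mean FPKM under 0.1, though none was at 0 in all samples. Mxtx2, the transcription factor that specifies this layer, had a mean of 0.0413 FPKM. The list's sum was 107 to 238 FPKM in GF, 93.2 to 228 in ZM and 141 to 158 in CV, and most of it came from rbp4, the plasma retinol carrier, which the liver also makes. The other matched genes of the list were slc40a1, gata5, hnf4a, ctsl.1 and amn, with means of 14.4, 2.97, 1.97, 1.17 and 1.02 FPKM, and cubn and sox17, with 0.387 and 0.125. Of the 18 liver markers 17 were matched. Their sum was 173 to 253 in GF, 149 to 333 in ZM and 127 to 405 in CV, led by tfa (transferrin) and serpina1. The hepatocyte marker fabp10a was low, at 1.77 to 2.90 FPKM in GF, 0.141 to 1.15 in ZM and 1.21 to 2.84 in CV.

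The liver marker sum was highest in CV 1, at 405 FPKM, next highest in ZM 2, at 333, and lowest in CV 3, at 127, the same 3 places as the summed FPKM of the 9 lipoprotein genes. Not every marker of the list followed its sum. Fabp10a, uox, hpda and cp were lower in CV 1 than in CV 3. Fabp10a had 1.21 FPKM in CV 1, 0.530 in ZM 2 and 1.56 in CV 3, and uox had 0.847, 0.487 and 1.51. Of the 14 liver markers tested, 10 were highest in CV 1 and 7 were lowest in CV 3, against 6.91% and 19.5% of all genes tested. Low levels in CV 3 were not particular to liver markers. Of the 6 red blood cell markers tested 5 were lowest in CV 3, and of the 11 epidermis markers 6 were. In both of these lists 0 markers were highest in CV 1. In CV 1 or ZM 2, 3 of the 6 red blood cell and 2 of the 11 epidermis markers were highest, against 13.1% of all genes tested. Higher in CV 1 than in CV 3 were 6 of the 6 and 8 of the 11, against 35.9%. Gut epithelium markers (9 of 11 matched) summed to 42.4 to 66.3 FPKM in GF, 49.2 to 76.0 in ZM and 35.4 to 72.6 in CV, led by fabp2, a fatty acid carrier, and ada. Their sum was highest in ZM 2, next highest in CV 1 and lowest in CV 3, the same 3 extreme samples as for the lipoprotein genes. Of the 5 tested, 2 were highest in CV 1 or ZM 2 and 2 were lowest in CV 3, against 13.1% and 19.5% of all genes tested. Fabp2 was highest in ZM 2 and CV 1, at 45.7 and 44.6 FPKM, and lowest in CV 3, at 10.3, whereas ada was highest in GF 1 and lowest in ZM 1. Red blood cell markers (7 of 11 matched) summed to 2053 to 2163 FPKM in GF, 2140 to 2575 in ZM and 1059 to 2513 in CV, with CV 3 the lowest but CV 1 in the middle, and were led by hbae3 and hbae1.1. Neuron markers (9 of 13 matched) summed to 933 to 1289 in GF, 757 to 1067 in ZM and 952 to 1352 in CV, with CV 3 the highest and ZM 2 the lowest, and were led by sncb and tubb5. Epidermis markers (11 of 11 matched) summed to 16029 to 19403 in GF, 14473 to 16254 in ZM and 13685 to 14516 in CV, led by krt4 and cyt1l. Exocrine pancreas markers (8 of 13 matched), led by ptf1a and prss1, and macrophage markers (8 of 11 matched), led by lcp1 and ctss2.2, each summed to no more than 27.6 FPKM in any sample. The part of these other tissues in the spread of the lipoprotein genes was not tested, and in pooled heads fewer cells of a type and less RNA per cell cannot be told apart.

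**Figure D4:**
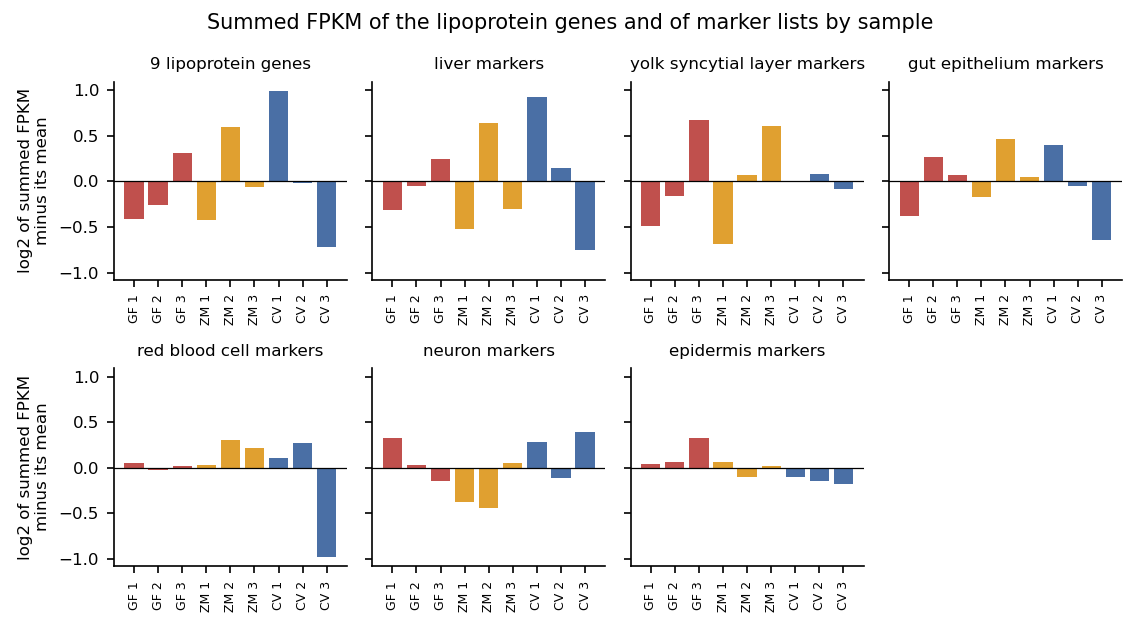
Log2 of the summed FPKM of the 9 lipoprotein genes and of 6 marker lists in each sample, minus its mean over the 9 samples, with GF bars in red, ZM in yellow and CV in blue. The lipoprotein genes and the liver markers are both highest in CV 1, next highest in ZM 2 and lowest in CV 3. The gut epithelium markers are highest in ZM 2, next highest in CV 1 and also lowest in CV 3. The epidermis bars vary less, with all GF bars above all CV bars.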

How the data were processed

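Values were the deposited FPKM of 32520 Ensembl genes (GRCz11), which the authors estimated with StringTie 1.3.4d after mapping with HISAT2 2.1.0 and checking reads with FastQC 0.11.8. The read counts behind the authors' DESeq2 analysis were not used here. The FPKM, relative to each sample's own total, carry no read counts, so the reads behind each value are not known here. Poly(A) RNA was sequenced from directional libraries, and whether strand was used for FPKM is not given in the sources used here.

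Names came from a gene name table (29201 IDs with a symbol). The 15904 genes whose FPKM averaged 1 or more across the 9 samples, all 9 lipoprotein genes among them, entered the test on log2(FPKM + 1), without rescaling, in limma 3.58.1 (lmFit, contrasts.fit, eBayes with trend) in R 4.3.3, all samples in 1 model, two-sided, with Benjamini-Hochberg adjustment over all genes tested. Thresholds were 0.05, and 0.1 for ZM against GF. The fit was tested on simulated data with known changes. Tables were made with Python 3.11.15.

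The 9 genes, the pathway and marker lists and the tests were chosen with earlier results of these data known. Text names all 9 genes, from each pathway list the highest gene and those at an unadjusted p under 0.05 (at most the 6 smallest p), the top 2 genes of marker lists and the 8 genes nearest in profile. Other apolipoprotein genes, hnf4a, fabp10a, uox, hpda, cp, ela2l, acsl1a, plin2, pltp and the yolk syncytial layer markers near 0 were named after their values were seen. Lrpprc was named for its function.

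Same-numbered samples of ZM and GF deviated from their group means together (correlation 0.409 in replicate 1, 0.466 in replicate 2 and 0.616 in replicate 3 over the genes tested). Across numbers it was 0.289 for ZM 1 with GF 2, 0.115 for ZM 2 with GF 1, and -0.508 to -0.367 where 1 sample was replicate 3. Replicate 3 thus stood apart most clearly, and replicates 1 and 2 were less clearly told from each other. The labels state no pairing. For GF and CV the correlations were -0.06, 0.15 and 0.32, and for ZM and CV they were 0.06, 0.06 and 0.49. Across numbers it was 0.17 for GF 1 with CV 2 and 0.26 for GF 2 with CV 1. It was 0.30 for ZM 1 with CV 2 and 0.39 for ZM 2 with CV 1. Each of these exceeded the same-numbered correlations of both of its samples. Same-numbered samples thus went together with CV mainly in replicate 3, so a pairing of CV by number is not settled. Alternatives were another pseudocount, 2 filters, 3 rescalings, 2 groups only, group-specific weights, no trend, each sample left out in turn, and a replicate block.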

Additional observations from a re-analysis of the deposited data

How the results depend on the processing

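None of the 9 lipoprotein genes passed the threshold in any comparison under any of the 19 alternatives. The smallest limma adjusted p was 0.253 for GF/CV (apoa1b, quantile normalization), 0.683 for ZM/GF (apobb.1, without ZM 3) and 0.229 for ZM/CV (apoa4b.1, without CV 2). The replicate block was fitted over all 9 samples, so it paired CV by number as well as ZM and GF. For CV 1 and CV 2 that pairing went against the higher correlations. With the block the smallest limma adjusted p was 0.865 for ZM/GF, 0.469 for GF/CV and 0.601 for ZM/CV, and no call on the 9 genes changed. Each replicate number holds a sample of every group, so this block could not change the medians. The filter at a mean FPKM of 5 leaves out mttp. The expression levels limit the comparison through 3 samples a group and the spread in CV, and the reads behind each FPKM value are not known. Of all genes tested, 1 passed as lower in GF (limma, GF/CV), against 841 with a pseudocount of 0.1, 787 with group-specific weights, 2202 without CV 2 and 0 without a filter.

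Signs depended on the processing, and the cause was not tested. After median-of-ratios rescaling the log2 fold change was 0.0037 for apoa2 in GF against CV and 0.027 for mttp in ZM against CV. After rescaling to an equal FPKM sum it was -0.0882 for mttp in GF against CV, and -0.12 for apoa2 and -0.14 for apobb.1 in ZM against CV. After quantile normalization it was, in ZM against CV, -0.0406 for apoa2, 0.071 for apoba, -0.0460 for apobb.1 and 0.17 for mttp. Leaving out single samples gave these ranges in GF against CV: apoa1a -0.63 to 0.37, apoa2 -0.51 to 0.41, apoa4b.1 -0.36 to 1.01, apobb.1 -0.71 to 0.17, apoc1 -0.44 to 0.25, apoea -0.44 to 0.12 and mttp -0.056 to 0.12. In ZM against GF they were -0.17 to 0.30 for apoa1a, -0.036 to 0.50 for apoa1b, -0.25 to 0.40 for apoa2, -0.32 to 0.67 for apoa4b.1, -0.043 to 0.52 for apoba, -0.052 to 0.62 for apobb.1 and -0.017 to 0.52 for apoc1. In ZM against CV they were -0.54 to 0.45 for apoa1a, -0.55 to 0.14 for apoa1b, -0.42 to 0.51 for apoa2, -0.15 to 1.22 for apoa4b.1, -0.50 to 0.21 for apoba, -0.40 to 0.47 for apobb.1, -0.16 to 0.54 for apoc1, -0.15 to 0.41 for apoea and -0.12 to 0.013 for mttp.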
